A study of Macaca mulatta with 24 samples.

Results

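The genes examined were 53 genes of cell proliferation, 26 that copy DNA or license cells to enter S phase and 27 that build the spindle, carry the mitotic kinases or separate the chromosomes. Each gene was represented by the probe that carried its symbol and had the highest mean over the 24 arrays. Such a probe was found for 40 of the 53 genes, 20 replication genes and 20 mitotic genes, among 16094 different gene symbols on the array. MCM2, CDT1, CDC45, GINS1, POLE2 and CCNE2 of the replication genes and CCNB2, BUB1, BUB1B, TTK, KIF11, MKI67 and NUSAP1 of the mitotic genes were not analysed here. All 40 passed the filter for entering the test, a signal well above background on 2 or more arrays. Of these, 38 were detected at that level on 22 arrays or more, MCM5 was so on 19 and missing on the other 5, and POLA1 was so on 3.

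The RNA came from pieces of colon of young-adult male rhesus macaques, 1 array per animal, with no transgene or second agent in any group. There were 4 unirradiated controls, which the labels place on day 4, and they served as the reference for every day. Total-body irradiation (TBI), a single uniform gamma dose to the whole animal, was given at 6.7 or 7.4 Gy, and colon was taken on day 4 (4 animals per dose), day 7 (4 per dose) and day 12 (2 per dose). Whole tissue was used, so epithelium, lymphoid tissue, stroma and muscle were measured together, and fewer cells of a type and less RNA per cell cannot be told apart.

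Before a cell divides, the MCM helicase is loaded at replication origins by CDC6, cyclins D and E with their kinases release the E2F programme, and the helicase, the clamp PCNA and the enzymes of nucleotide supply then copy the genome. Cyclins A and B with CDK1, the Aurora and Polo-like kinases, kinetochore proteins and spindle kinesins then carry the cell through mitosis until the anaphase-promoting complex ends it. In colon, dividing cells lie mainly in the lower crypt below the mature absorptive surface, and radiation is known to block and kill such dividing cells before survivors repopulate the crypt.

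Arrays differed in how many probes they detected well above background, from 66.6% to 84.8%. With 1 array per animal, p-values set a difference against the spread between arrays within groups. That spread holds differences between animals together with those of slide, array position and scan day. Values are log2 signals relative to the 75th percentile of the same array, so all differences are relative to that level, and levels of different probes are not compared. A gene is said to be called, and to have risen or fallen, where its limma p adjusted over all probes tested was under 0.05 and its difference at least 2-fold, which is 1 on the log2 scale. Of the colon epithelium markers, 8 of 11 had a probe, and all 8 were well above background on arrays of every group. All controls were at position 1 of the 4 positions of their slide. Replicates 1 and 2 of 6.7 Gy day 4 were at position 1, its other replicates and all 7.4 Gy day 4 arrays at position 2. The day 7 arrays were at 3 and 4 and the day 12 arrays at 4. Position and group thus cannot be told apart for days 7 and 12 against control or against day 4. No position was shared by 7.4 Gy day 4 and control either, and only the 6.7 Gy day 4 arrays link those positions.

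The medians of both kinds of gene stood above the controls 4 days after TBI and were near them on day 12. The median log2 difference from control over the 20 replication genes was 0.53 after 6.7 Gy and 0.61 after 7.4 Gy on day 4, then 0.16 and 0.19 by day 7, and by day 12 it was -0.05 and -0.04. Over the 20 mitotic genes it was 0.67 and 0.45 on day 4. By day 7 it was 0.48 and 0.36, and by day 12 it was 0.08 and 0.17. The median over all probes tested lay between -0.08 and 0.08 in these 6 comparisons. On day 7 the replication median was thus below its day 4 value by more than the mitotic median was. These medians are descriptions with no test, and replication minus mitotic spanned a wider range among the 4 controls alone, from -0.36 to 0.69, than these medians moved apart. That range rested on control replicate 1, as the other controls ran from -0.36 to -0.08.

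**Figure D1:**
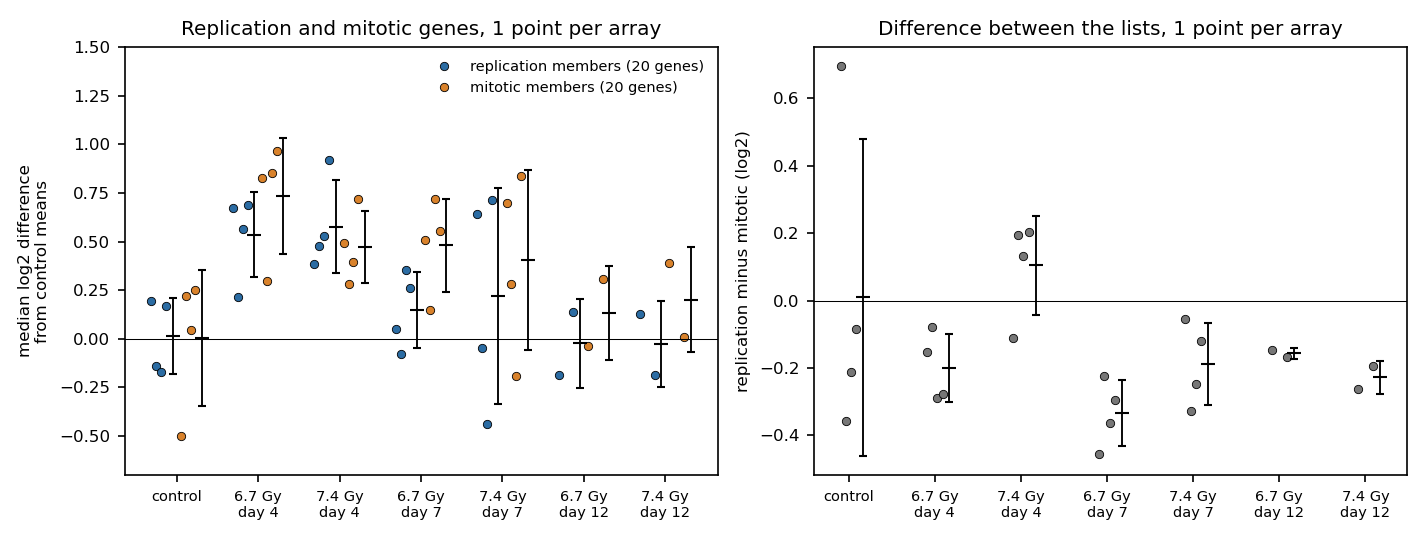
Left, the median over 20 replication genes (blue) and over 20 mitotic genes (orange) of the log2 difference from the control means, by array in each group; right, replication minus mitotic by array. Points are arrays and bars give the mean ± SD of the group (n = 4, and n = 2 on day 12); in the left plot both medians lie above 0 on all 8 day 4 arrays, and in the right plot the 3 points clearly above 0 after irradiation are 7.4 Gy day 4 arrays, while control replicate 1 is at 0.69.

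By array, the replication median over control was 0.67, 0.22, 0.56 and 0.69 for replicates 1 to 4 of 6.7 Gy day 4 and 0.38, 0.48, 0.53 and 0.92 for those of 7.4 Gy day 4. The 4 controls were at 0.20, -0.14, -0.17 and 0.17, below all of these 8 arrays. The mitotic median was 0.83, 0.29, 0.85 and 0.97 on the 6.7 Gy arrays and 0.49, 0.28, 0.39 and 0.72 on the 7.4 Gy arrays. Controls lay at -0.50, 0.22, 0.05 and 0.25, and the lowest value belonged to control replicate 1. Without that control the mitotic median on day 4 was 0.52 after 6.7 Gy and 0.33 after 7.4 Gy. The 7.4 Gy day 7 arrays were spread most, with replication medians of 0.64, -0.05, -0.44 and 0.71 and mitotic medians of 0.70, 0.28, -0.19 and 0.84. Replicates 1 and 4 of that group were thus at the level of day 4, whereas replicate 3 was below the control mean for both kinds of gene. Markers of other cells differed between the same arrays, since the median over 9 markers of absorptive colonocytes was -1.21, -0.67, -0.21 and -1.77 in replicates 1 to 4, and that over 3 smooth muscle markers was -1.33, -0.24, 0.17 and -0.65. Their part in the spread was not tested.

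On day 4 after 6.7 Gy, 6 of the 40 genes rose and none fell. The 6 were the replication genes TYMS and MCM10 and the mitotic genes CCNA2, AURKA, KIF23 and CENPA. Of all probes tested, 1.83% were called higher and 1.78% lower in that comparison. On day 4 after 7.4 Gy, 3 of the 40 rose and none fell, TYMS, MCM4 and CCND1, all replication genes. Of all probes, 3.36% were called higher and 3.68% lower there. At an adjusted p under 0.05 with any size of difference, 10 genes were higher after 6.7 Gy and 8 after 7.4 Gy, against 4.49% and 8.34% of all probes. PCNA, CDC20 and BIRC5 were added at both doses (the second BIRC5 probe was called at 6.7 Gy, at 1.21 with a limma adjusted p of 0.0275), TPX2 at 6.7 Gy, and CCND2 and AURKA at 7.4 Gy. A difference in sign was seen in 2 of the 40 genes at 6.7 Gy (CDK2 and E2F1) and 4 at 7.4 Gy (E2F1, CENPF, PRC1 and NEK2), which were below control without passing any threshold.

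**Figure D2:**
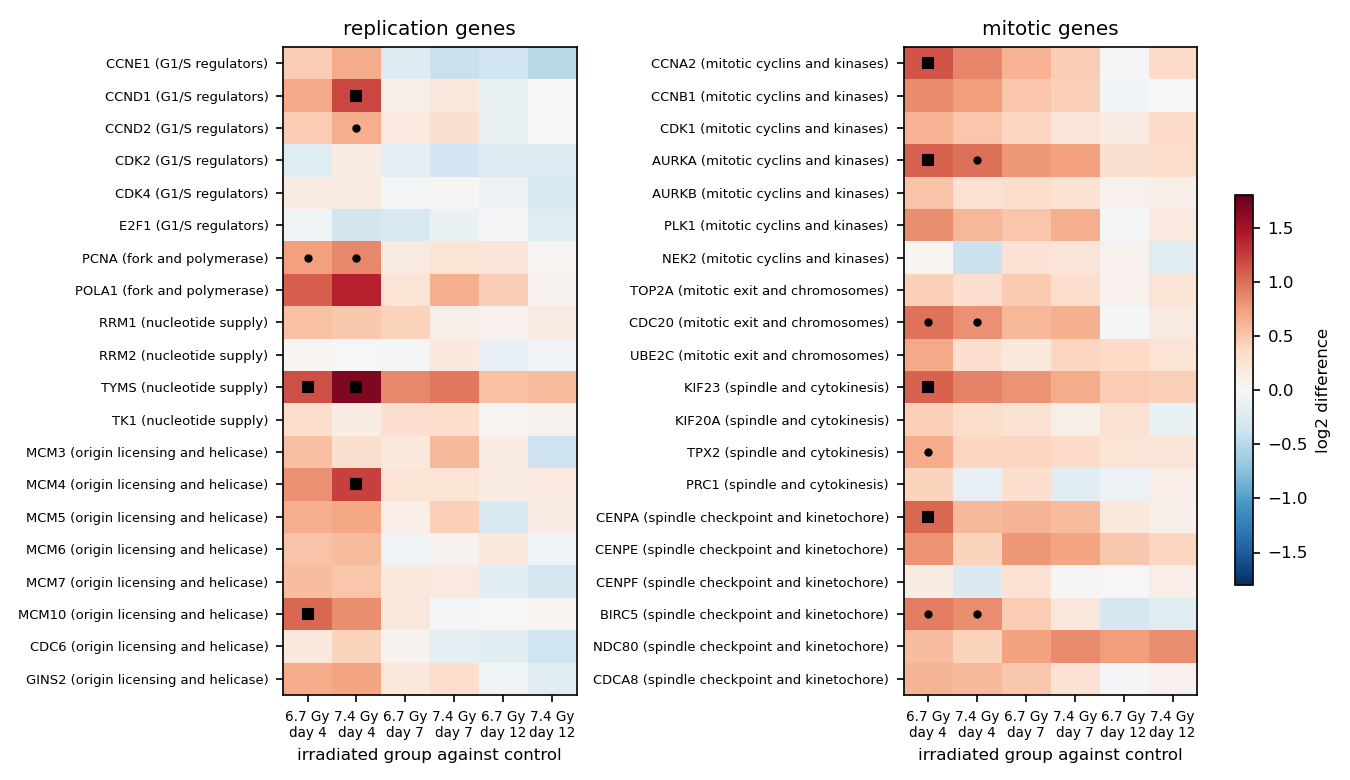
Log2 difference from control (colour scale) of each of the 20 replication genes (left) and 20 mitotic genes (right), with its role in brackets, in the 6 irradiated groups. Squares mark a difference of 2-fold or more at a limma adjusted p under 0.05 and dots an adjusted p under 0.05 below 2-fold; all marks lie in the day 4 columns, with squares for 6 genes at 6.7 Gy and 3 at 7.4 Gy.

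After 6.7 Gy, every day 4 array lay above every control array for 17 of the 40 genes, 5 replication and 12 mitotic, against 7.51% of all probes. POLA1, among the 5, was not well above background on any control; without it the count was 16 of 39. After 7.4 Gy the count was 16 of 40, 10 replication and 6 mitotic, against 10.6% of all probes, with MCM5 measured on 2 of the 4 arrays. On day 7 it was 2 of 40 after 6.7 Gy (AURKA and CDCA8), against 3.39% of all probes, and 0 of 40 after 7.4 Gy, against 3.03%. No gene lay wholly below the controls on day 4 or 7, and the share of all probes that did was not counted. Day 12, with 2 arrays per dose, was left out of these counts. More mitotic than replication genes were thus separated from control at 6.7 Gy and more replication than mitotic genes at 7.4 Gy.

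Among the enzymes of nucleotide supply, TYMS (thymidylate synthase, which makes the thymidine nucleotide needed for DNA) rose most of the 40 genes at both doses. Its log2 signal was 1.09, 1.88, 1.37 and 1.05 in the controls, 2.57, 1.86, 2.61 and 2.99 after 6.7 Gy and 2.94, 2.80, 3.11 and 3.24 after 7.4 Gy. The 7.4 Gy arrays lay above all controls, and at 6.7 Gy replicate 2 alone overlapped them. The increases were 2.23-fold (log2 difference 1.16 ± 0.25 SE, limma adjusted p = 0.00887) and 3.19-fold (1.67 ± 0.25 SE, limma adjusted p = 0.000235). On the other 3 TYMS probes the log2 differences were 1.36 to 1.70 at 6.7 Gy and 1.66 to 1.98 at 7.4 Gy, so that all 4 probes were called at both doses. On day 7 the TYMS signal was 2.17, 1.69, 2.72 and 2.26 after 6.7 Gy and 2.58, 2.25, 1.76 and 2.60 after 7.4 Gy, log2 differences of 0.86 and 0.95 that missed the threshold (limma adjusted p = 0.176 and 0.113). Of the other 3 probes, 1 was called on day 7 after 7.4 Gy (1.13, limma adjusted p = 0.0168) and was at 0.98 after 6.7 Gy (limma adjusted p = 0.0418), and the others were at 0.87 to 0.93 and not called. Without replicate 3 of 7.4 Gy day 7 the brightest probe was called too. On day 12 it was 1.90 and 1.86 after 6.7 Gy and 2.14 and 1.71 after 7.4 Gy, where 2 of the 4 arrays lay above the highest control. Of the other enzymes, the subunits of ribonucleotide reductase and thymidine kinase, RRM1 differed from control by 0.53 and 0.48 on day 4, TK1 by 0.32 and 0.13, and RRM2 by 0.04 and 0.00, none of them called.

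Of the 8 genes of origin licensing and the helicase, all were above control on day 4 at both doses, with medians of 0.60 and 0.64, and 1 was called at each dose. MCM4, a subunit of the replicative helicase, had log2 signals of 1.97, 1.60, 1.59 and 1.96 in the controls, 2.75, 1.94, 2.77 and 2.96 after 6.7 Gy and 3.04, 2.82, 2.94 and 3.24 after 7.4 Gy. It rose 2.35-fold after 7.4 Gy (1.23 ± 0.29 SE, limma adjusted p = 0.00642), and its 6.7 Gy difference of 0.83 ± 0.29 SE was not called (limma adjusted p = 0.0786), with replicate 2 within the controls. With array position as a block the 7.4 Gy difference of MCM4 was 0.71 (limma adjusted p = 0.423), and with scan day added to it 0.39 (limma adjusted p = 0.852). MCM10, which helps to activate the helicase, was at -4.37, -4.21, -4.93 and -3.98 in the controls, at -3.44, -3.24, -3.09 and -3.59 after 6.7 Gy and at -3.30, -3.77, -3.67 and -3.40 after 7.4 Gy. All 8 irradiated arrays lay above the controls, with a 2.05-fold increase at 6.7 Gy (1.04 ± 0.32 SE, limma adjusted p = 0.0484) and a 7.4 Gy difference of 0.84 ± 0.32 SE that was not called (limma adjusted p = 0.0721). The call at 6.7 Gy was near the threshold and was lost under 26 of 40 alternatives, by adjusted p values up to 0.274. MCM3, MCM5, MCM6, MCM7, CDC6 and GINS2 had log2 differences of 0.19 to 0.71 on day 4.

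At the fork, PCNA (the sliding clamp that holds the polymerase on DNA) was at 2.48, 2.17, 2.05 and 2.42 in the controls, at 3.25, 2.69, 3.17 and 2.96 after 6.7 Gy and at 2.88, 3.05, 3.35 and 3.31 after 7.4 Gy. No day 4 array overlapped the controls. The differences of 0.74 ± 0.21 SE (limma adjusted p = 0.0337) and 0.87 ± 0.21 SE (limma adjusted p = 0.00788) had an adjusted p under 0.05 but were under 2-fold, 1.67- and 1.82-fold. POLA1, the catalytic subunit of DNA polymerase alpha, was not well above background on any control array and was so on 1 array of each day 4 group, so its measured differences of 1.07 and 1.40 give no fold; its bound fell below 1.

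Among the regulators of entry into S phase, CCND1 (cyclin D1, the partner of CDK4) rose after 7.4 Gy. Its log2 signal was 4.16, 3.72, 3.82 and 4.04 in the controls and 5.18, 4.84, 5.50 and 5.03 after 7.4 Gy, with no overlap and a 2.30-fold increase (1.20 ± 0.20 SE, limma adjusted p = 0.000492). After 6.7 Gy it was 5.23, 4.50 and 4.10 on 3 arrays, replicate 2 being an outlier spot and missing, and the difference of 0.68 ± 0.21 SE was not called (limma adjusted p = 0.051). The second CCND1 probe had differences of 1.05 and 1.40 and was called at both doses. The 7.4 Gy increase of CCND1 was called under all 40 alternatives, with limma adjusted p between 2.51e-05 and 0.0196. In the fits with array position as a block, controls and 7.4 Gy arrays are linked only through 6.7 Gy day 4. There CCND1 at position 1 was measured on replicate 1 alone, so the calls in those fits rest on that 1 array. CCND2 (cyclin D2) and CCNE1 (cyclin E1) were higher by 0.46 and 0.45 after 6.7 Gy and by 0.66 and 0.67 after 7.4 Gy. CDK2, CDK4 and E2F1 lay between -0.32 and 0.16. The second CDK4 probe was at 0.62 and 0.46, with an adjusted p under 0.05 (limma adjusted p = 0.00306 and 0.00823) and under 2-fold.

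Of the 7 mitotic cyclins and kinases, the median difference on day 4 was 0.84 after 6.7 Gy and 0.60 after 7.4 Gy. CCNA2 (cyclin A2, active from S phase into mitosis) was at -0.74, -0.01, -0.17 and -0.80 in the controls, at 0.69, 0.23, 0.84 and 1.03 after 6.7 Gy and at 0.82, -0.59, 0.55 and 1.005 after 7.4 Gy. It rose 2.18-fold after 6.7 Gy (1.13 ± 0.31 SE, limma adjusted p = 0.0272), and at 7.4 Gy, where replicate 2 fell within the controls, the difference was 0.88 ± 0.31 SE (limma adjusted p = 0.0511). AURKA (Aurora kinase A, of centrosomes and the spindle) was at -0.10, 0.66, 0.44 and 0.69 in the controls, at 1.38, 0.96, 1.77 and 1.84 after 6.7 Gy and at 1.30, 0.89, 1.59 and 1.86 after 7.4 Gy. No day 4 array overlapped the controls, and the increase was 2.09-fold at 6.7 Gy (1.06 ± 0.31 SE, limma adjusted p = 0.0367) against 1.98-fold at 7.4 Gy (0.99 ± 0.31 SE, limma adjusted p = 0.031), just under 2-fold.

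CCNB1 (cyclin B1, which with CDK1 drives entry into mitosis) was at 1.59, 1.96, 1.96 and 2.04 in the controls, at 2.74, 2.36, 2.91 and 2.92 after 6.7 Gy and at 2.62, 2.18, 2.69 and 3.10 after 7.4 Gy. The groups did not overlap, yet the differences of 0.85 ± 0.28 SE and 0.76 ± 0.28 SE were not called (limma adjusted p = 0.0645 and 0.0649). CDK1 itself was at -1.37, -0.46, -0.92 and -0.59 in the controls, at -0.12, -0.64, -0.05 and -0.05 after 6.7 Gy and at -0.12, -0.54, -0.55 and -0.14 after 7.4 Gy. Its groups overlapped, its differences were 0.62 ± 0.24 SE and 0.50 ± 0.24 SE (limma adjusted p = 0.105 and 0.15), and its second probe gave -0.43 and 0.55, so the direction at 6.7 Gy depended on the probe. PLK1 and AURKB were higher by 0.84 and 0.51 after 6.7 Gy, and NEK2, a centrosome kinase, was at 0.03.

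At the kinetochore and spindle, CENPA (the histone variant that marks the centromere) was at -3.25, -2.26, -2.56 and -2.54 in the controls, at -1.48, -2.19, -1.49 and -1.34 after 6.7 Gy and at -2.04, -2.29, -2.25 and -1.69 after 7.4 Gy. It rose 2.04-fold at 6.7 Gy (1.03 ± 0.27 SE, limma adjusted p = 0.0208), where all arrays lay above the controls, and at 7.4 Gy, where they overlapped, it differed by 0.59 ± 0.27 SE (limma adjusted p = 0.127). KIF23, a kinesin of the central spindle, was at -3.94, -2.11, -2.13 and -2.18 in the controls, -1.53, -1.75, -1.56 and -1.29 after 6.7 Gy and -1.57, -1.98, -1.57 and -1.67 after 7.4 Gy. Its 2.08-fold increase at 6.7 Gy (1.06 ± 0.33 SE, limma adjusted p = 0.0492) rested on control replicate 1, without which the difference was 0.61 (limma adjusted p = 0.137). The call was near the threshold and was lost under 29 of 40 alternatives. TOP2A (topoisomerase II alpha, which untangles sister chromosomes) was at 1.83, 2.51 and 2.52 in the controls, replicate 2 missing, and at 2.23 to 2.97 after 6.7 Gy and 2.26 to 3.02 after 7.4 Gy. It overlapped the controls and differed by 0.43 ± 0.30 SE and 0.31 ± 0.30 SE (limma adjusted p = 0.395 and 0.513).

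**Figure D3:**
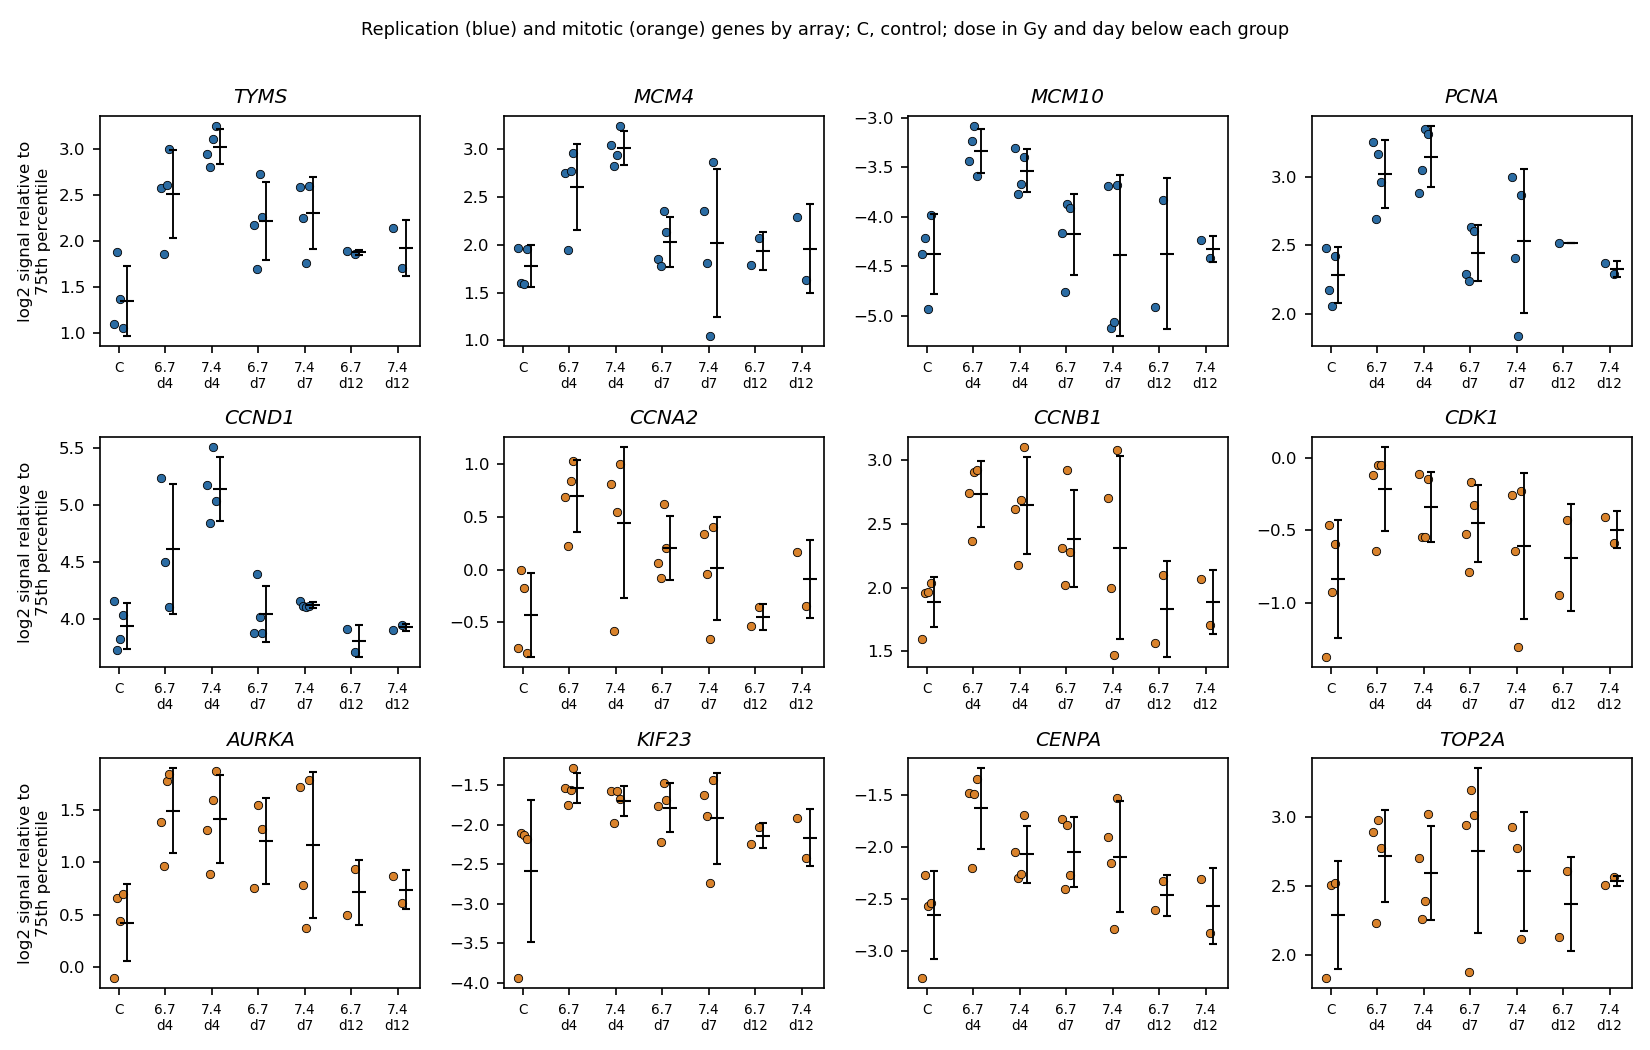
Log2 signal relative to the 75th percentile of the array for 12 genes in control (C) and in the 6 irradiated groups, named by dose in Gy and day (d), 1 point per array, with bars for the mean ± SD. TYMS rises from a control mean of 1.35 to 2.51 and 3.02 on day 4, CCND1 after 7.4 Gy stands at 5.14 against 3.93 in control, and the isolated control point of KIF23 is at -3.94.

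The count of 6 calls at 6.7 Gy depended on single arrays and on the slide layout. It fell to 1, TYMS, without control replicate 1 or without replicate 1 or 3 of 6.7 Gy day 4, and to 0 without replicate 4 of 6.7 Gy day 4. With slide as a block 1 was called, TYMS, and with array position as a block 1 was called, CCND1. At 7.4 Gy the count of 3 rose to 6 without control replicate 2 and to 5 without replicate 2 of 7.4 Gy day 4. With array position as a block, CCND1 and CDC6 were called at 7.4 Gy, and TYMS was at 1.09 (limma adjusted p = 0.119). When the model held both array position and scan day, CCND1 was the only gene called at either dose. The replication median at 7.4 Gy became 0.31, and the mitotic median there turned to -0.31. The fits with array position link 7.4 Gy day 4 to the controls only through 6.7 Gy day 4. In that group replicates 1 and 2 were at position 1 on scan day 2, and replicates 3 and 4 at position 2 on scan day 1. At position 1 CCND1 was measured on replicate 1 alone, so its calls in these fits rest on that array. Replicates 1 and 2 of 6.7 Gy day 4 shared position 1 with the controls, and within that position the replication median was 0.47 and the mitotic median 0.58 above control, with 17 and 18 of 20 genes higher.

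Within a slide, each control array could be set against the day 4 array beside it. On slides 1 and 2 the 6.7 Gy day 4 array (replicates 3 and 4) exceeded its control by 0.37 and 0.83 in replication median and by 1.35 and 0.75 in mitotic median. On slides 3 and 4 the 7.4 Gy day 4 array (replicates 1 and 2) exceeded its control by 0.55 and 0.31 in replication median and by 0.45 and 0.03 in mitotic median. All 4 pairs thus had the day 4 array higher, and the mitotic difference on slide 4 was near 0. The slide 1 pair used control replicate 1, the lowest control in mitotic median. In each pair the control was at position 1 and the day 4 array at position 2, so position and irradiation cannot be told apart there.

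The doses were compared within each day. No gene of the 40 was called for 7.4 against 6.7 Gy on day 4, 7 or 12, as 0% of all probes were, and the methods' t-test also called 0 on each day. At an unadjusted p under 0.05 of any size, limma gave 2 of the 40 on day 4, CCND1 (0.53 ± 0.21 SE higher after 7.4 Gy) and PRC1 (-0.55 ± 0.26 SE), and 0 on days 7 and 12. The share of all probes at that threshold was not counted, so these 2 genes are not set apart from chance. With a 2-fold difference also required, 0 of the 40 passed on day 4, against 440 of 38220 probes. In direction on day 4, all 20 mitotic genes had a lower mean after 7.4 than after 6.7 Gy, from -0.04 to -0.55 with a median of -0.20. Of the 20 replication genes 13 had a higher mean, with a median of 0.05. The median over all probes was -0.03. Genes of a list were measured on the same arrays and are not replicates, so these counts are no test. By array the mitotic medians overlapped, from 0.29 to 0.97 after 6.7 Gy and from 0.28 to 0.72 after 7.4 Gy. Replication minus mitotic, by array, was -0.15, -0.08, -0.29 and -0.28 after 6.7 Gy and -0.11, 0.20, 0.13 and 0.20 after 7.4 Gy, so that replicate 1 of 7.4 Gy overlapped the lower dose and the other 3 arrays did not. The controls ranged from -0.36 to 0.69, wider than both irradiated groups together. That width rested on control replicate 1, as the other controls ran from -0.36 to -0.08. At position 2 alone, the 4 arrays of 7.4 Gy against replicates 3 and 4 of 6.7 Gy, 0 of 20 mitotic genes and 11 of 20 replication genes were higher. Those 6.7 Gy replicates were on scan day 1, and the 7.4 Gy arrays were on other slides and scan day 2. Dose, scan day and slide thus cannot be told apart at that position. The change of the dose difference from day 4 to day 7 passed for none of the 40 (lowest limma adjusted p = 0.994; 0 at an unadjusted p under 0.05).

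On days 7 and 12 no gene of the 40 was called against control at either dose on its brightest probe, and TYMS on day 7 after 7.4 Gy was the 1 gene called on another probe. Of all probes, 0.322% were called at 6.7 Gy and 0.39% at 7.4 Gy on day 7. By day 12 these shares were 0.0183% and 0.0262%. At an unadjusted p under 0.05 of any size limma gave 8 and 7 of the 40 on day 7 and 0 on day 12, and the methods' t-test called 0 in each of the 4 comparisons. The share of all probes at that unadjusted threshold was not counted. With a 2-fold difference also required, 0 of the 40 passed on day 7 at either dose, against 882 and 1021 of 38220 probes. Of the mitotic genes on day 7, 20 of 20 were above control after 6.7 Gy and 19 of 20 after 7.4 Gy, against 14 and 15 of 20 replication genes. These genes were measured on the same arrays, so the counts are a description and not a test. Without control replicate 1 these mitotic counts were 19 and 17 of 20. AURKA was at 0.78 and 0.74 and KIF23 at 0.81 and 0.67, which without control replicate 1 became 0.60 and 0.56 for AURKA and 0.36 and 0.22 for KIF23, while CCND1 was at 0.11 and 0.19 and MCM10 at 0.20 and -0.02. NDC80, which ties the kinetochore to microtubules, had a larger difference after day 4 than on it at both doses, 0.55 and 0.40, then 0.73 and 0.85 (day 7) and 0.75 and 0.84 (day 12), with standard errors of 0.41 to 0.50 and no call. Without control replicate 1 these were 0.27 and 0.13, 0.45 and 0.58, and 0.48 and 0.56. Its control arrays were at -3.35, -1.82, -3.0 and -1.90, so 2 of 4 lay at the level of the irradiated arrays.

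The fall after day 4 was compared over both doses. The arrays of day 4 shared no slide position with those of days 7 and 12. From day 4 to day 7 none of the 40 was called lower on its brightest probe, against 2.06% of all probes, and the second CCND1 probe was (-1.07, limma adjusted p = 0.000412). In the same comparison 8 of the 40 were lower at an adjusted p under 0.05 of any size, a threshold chosen after seeing the data, against 11.4% of all probes. These were the replication genes MCM4, MCM6, MCM10, PCNA, TYMS, CCNE1 and CCND1 and the mitotic gene BIRC5. The medians were -0.38 over the replication genes and -0.19 over the mitotic genes, against 0.07 over all probes. From day 4 to day 12, CCND1 fell 2.01-fold (-1.01 ± 0.18 SE, limma adjusted p = 0.000569) and BIRC5 fell 2.19-fold (-1.13 ± 0.24 SE, limma adjusted p = 0.00257), against 2.68% of all probes called lower. The brightest TYMS probe was at -0.87 and under 2-fold, but its other 3 probes were all called lower, at -1.14 to -1.41 (limma adjusted p = 3.27e-05 to 0.00165), and on the mean over a gene's probes TYMS was the 1 gene called. BIRC5, or survivin, is a subunit of the chromosomal passenger complex and was at -1.18, -1.73, -1.13 and -0.70 on day 4 after 6.7 Gy, at -1.39, -1.77, -1.20 and -0.73 after 7.4 Gy and at -2.67, -2.15, -2.03 and -2.60 on the 4 day 12 arrays. No day 12 array overlapped day 4, and the controls at -2.21, -1.97, -2.44 and -1.79 lay with day 12. The second BIRC5 probe was at -0.73 and was not called (limma adjusted p = 0.0711). The CCND1 call was lost without 6.7 Gy day 4 replicate 1, 7.4 Gy day 4 replicate 3 or 6.7 Gy day 12 replicate 2 (-0.85 to -0.96, limma adjusted p up to 0.00455), and the BIRC5 call without 7.4 Gy day 12 replicate 2 (-0.99, limma adjusted p = 0.0229), in each case by falling under 2-fold.

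At an adjusted p under 0.05 of any size, 17 of the 40 were lower on day 12 than on day 4, 11 replication and 6 mitotic, against 9.93% of all probes. Beside CCND1, the replication genes were MCM4, MCM7, MCM10, CDC6, GINS2, PCNA, TYMS, CCNE1, CCND2 and CDK4, and beside BIRC5 the mitotic genes were CCNA2, CCNB1, CENPA, CDC20 and CDCA8. The medians were -0.64 and -0.31 for replication and mitotic genes, against 0.11 over all probes. From day 7 to day 12 none was called, against 0.118% of all probes, and 2 of the 40 had an unadjusted p under 0.05. The share of all probes with such a p was not counted. In that interval the mitotic median was -0.31 and the replication median -0.19. The comparisons of days 7 and 12 share the day 4 arrays, so they are not separate evidence of the same fall. CCNE1 (cyclin E1) was at -0.88 on day 7 and -0.99 on day 12 relative to day 4, and the means of E2F1 and RRM2 moved by 0.13 or less in both.

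**Figure D4:**
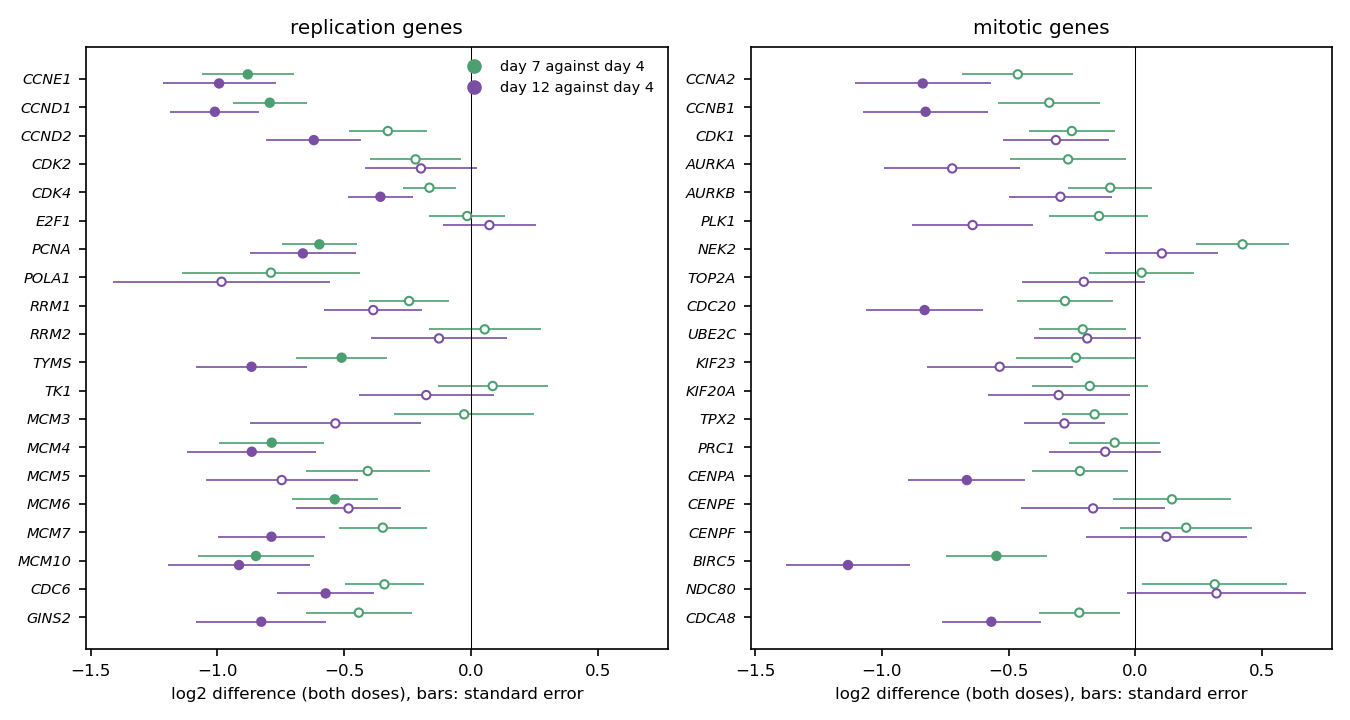
Log2 difference from day 4 on day 7 (green) and on day 12 (purple) over both doses for the 20 replication genes (left) and the 20 mitotic genes (right), with bars for the standard error; filled points have a limma adjusted p under 0.05. Filled green points number 7 on the left and 1 on the right, and filled purple points 11 and 6; both contrasts share the day 4 arrays.

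Other genes of the same machinery were read from lists of 42 further replication genes, 30 of them measured, and 52 further mitotic genes, 43 measured. On day 4, 1 of the 30 replication genes rose at each dose and none fell, with medians of 0.42 and 0.45. It was UHRF1, which keeps DNA methylation in place behind the fork, at 1.22 and 1.37 (limma adjusted p = 0.0139 and 0.00321). Of the 43 mitotic genes 2 rose at each dose and none fell, with medians of 0.48 and 0.26. Of all probes, 1.83% were called higher at 6.7 Gy and 3.36% at 7.4 Gy, and these counts are too small to be set apart from those shares. ECT2, an activator of RhoA in cytokinesis, rose at both doses (1.37 and 1.38), TRIP13 at 6.7 Gy (1.12) and SPC24, a partner of NDC80, at 7.4 Gy (1.03). CLSPN, the claspin of the replication checkpoint, fell from day 4 to day 7 (-1.23, limma adjusted p = 0.00366) and to day 12 (-1.82, limma adjusted p = 0.00102). For 7.4 against 6.7 Gy on day 4, 4 of the 43 further mitotic genes had the higher mean after 7.4 Gy and 15 of the 30 further replication genes did, none of them called.

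Of 11 cyclin-dependent kinase (CDK) inhibitors, pocket proteins and the related BTG2, 8 were measured. CDKN1A, which encodes the CDK inhibitor p21 and is induced by p53, rose on day 4 at both doses, by 1.27 and 1.11 on the log2 scale (limma adjusted p = 0.00268 and 0.00235), in the same arrays as the proliferation genes. CDKN2B, which encodes p15, an inhibitor of CDK4, fell by 2.11 and 1.91 (limma adjusted p = 0.000717 and 0.000468). On days 7 and 12 none of the 8 was called against control.

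Markers of other cells moved on the same arrays. Of the 9 measured markers of absorptive colonocytes, the mature surface cells, 5 fell after 6.7 Gy and 7 after 7.4 Gy on day 4, with medians of -2.42 and -4.33. The log2 of their summed signal ran from 8.70 to 9.51 in control, from 6.42 to 8.06 after 6.7 Gy and from 4.89 to 7.79 after 7.4 Gy, with no marker below background on every array of a group. Of the 8 epithelial markers 3 fell at each dose (VIL1, CDX2 and KRT20), and the summed signal ran from 7.72 to 7.86 in control, from 6.90 to 7.19 after 6.7 Gy and from 6.75 to 7.21 after 7.4 Gy. All 6 fibroblast markers were above control, 2 of them called after 7.4 Gy and 0 after 6.7 Gy, with medians of 0.57 and 0.89 and summed signals of 6.73 to 8.01, 7.29 to 7.60 and 7.90 to 8.42. Of 6 measured markers of macrophages and granulocytes 2 rose after 7.4 Gy, S100A8 and S100A9, and the medians were 0.64 and 0.84. Of 5 measured crypt stem cell markers none was called, with medians of 0.37 and 0.23. B lymphocyte markers, another source of dividing cells in the gut, had medians of -0.67 and -1.01 over 3 measured genes, MS4A1 being below background on every day 4 array, and of the germinal centre markers 2 could be tested, with medians of 0.29 and 0.12. HBB of red blood cells fell by 5.94 and 5.96. The median over the 3 red blood cell markers, taken by array against the control means, averaged -2.72 after 6.7 Gy and -2.14 after 7.4 Gy. The log2 of their summed signal, in which the brightest marker weighs most, overlapped control. It ran from 7.086 to 8.065 in control, from 7.218 to 7.715 after 6.7 Gy and from 7.068 to 7.247 after 7.4 Gy. Of the 6 measured T lymphocyte markers none was called, with medians of -0.40 and -0.25 on day 4 and -1.09 and -0.96 on day 7. The part of these cell types in the differences of the proliferation genes was not tested.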

How the data were processed

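Colon RNA was measured on 24 one-colour (Cy3) Agilent arrays with probes designed on rheMac2. Per the file headers, the authors extracted each spot's intensity with Feature Extraction 11.0.1.1, which subtracted background. Gene symbols came from the authors' deposited table of raw intensity values, which paired 23674 of 43603 probes with a symbol, and these names can be old. A second deposited table, of log2 values that the authors normalized, was an alternative. Outlier spots, 24 to 712 per array, were set to missing; no spot was saturated. The value was log2 intensity minus the log2 75th percentile of the array, which lay between 549.6 and 962.7. A probe entered if well above background on at least 2 arrays (38220 probes; 38200 or more fitted per contrast).

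One mean per group was fitted over all arrays in limma 3.58.1 (R 4.3.3; lmFit, contrasts.fit, eBayes), with two-sided p-values adjusted by Benjamini-Hochberg over all probes in each of 13 contrasts. The code was tested on simulated data. Array number limits the precision. Per-array values were given for every gene called against control and for PCNA, CDK1, CCNB1 and TOP2A; BIRC5 and NDC80 were named after their values were seen. Where a gene was below background on all arrays of 1 group, a fold bound was computed. Alternatives were other background correction, scaling, filters, tests and blocks, and leaving out each array. The genes and lists were chosen with earlier results of these data known. A label gives another last day than the sample labels, which were followed. Other intestinal segments, sequences and promoters were not analysed here.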

Additional observations from a re-analysis of the deposited data

Results flagged for a closer look

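In 71 sets of 4 arrays (the genes given by array and the median of each kind of gene, in each group of 4), a single array stood apart by Dixon's test in 4; by chance about 1 in 20 sets would. KIF23 in control replicate 1 was at -3.94, against -2.18 to -2.11 in the other 3 controls. CDK1 in 6.7 Gy day 4 replicate 2 was at -0.64, against -0.12 to -0.05 in the others. CCND1 in 7.4 Gy day 7 replicate 1 was at 4.16, against 4.11 to 4.11 in the others, a gap that is large only beside the small spread of that group. BIRC5 in 6.7 Gy day 7 replicate 2 was at -2.20, against -1.51 to -1.41 in the others.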

How the results depend on the processing

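The count of genes called at 6.7 Gy on day 4 (6) became 3 with normexp background correction, 11 with spike-in scaling, 0 with the methods' t-test, 2 when only the groups compared were fitted, 1 each with slide, array position, or array position and scan day as blocks, and 10 at any fold; leaving out single arrays gave 0 to 7. At 7.4 Gy (3) it became 5 with median scaling, 13 with spike-in scaling, 1 with blocks for array position and scan day and 8 at any fold, and 3 to 6 without single arrays. Spike-in scaling raised the median of all probes by 0.22 and 0.29 in these comparisons. From day 4 to day 7 (0) spike-in scaling gave 2 and any fold 8. From day 4 to day 12 (2), normexp, the mean over a gene's probes, slide as a block and the replicate block gave 1 each, any fold 17, and leaving out arrays 1 to 4. For 7.4 Gy day 7 against control leaving out arrays gave 0 to 1.

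The replication medians on day 4 became 0.75 and 0.91 with spike-in scaling. At 7.4 Gy, array position and scan day as blocks gave 0.31 for replication and -0.31 for mitotic genes. That fit links 7.4 Gy day 4 to the controls only through the 6.7 Gy day 4 arrays. The same block could not be fitted for days 7 and 12 against control or day 4. The cause of these shifts was not tested. In the paired fit, with the replicate number as a block, 4 genes were called at 6.7 Gy and 3 at 7.4 Gy on day 4, but the numbers do not pair the samples: same-numbered arrays of different groups had a median residual correlation of 0.0019 (62 pairs, -0.23 to 0.24), and 8 of 24 arrays correlated best with their own number. The random slide block, the any-fold threshold and the joint block of position and scan day were chosen after seeing the data.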
